A study of Rattus norvegicus with 31 samples.

Results

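Calcium sensor and buffer proteins of tail motor neurons were followed after spinal cord transection through 9 genes: Vsnl1, Hpca, Hpcal1, Cabp1, Calb1, Calb2, Pvalb, Cacybp and Anxa6. The genes were chosen from earlier results of these same arrays, and every probe set that carries one of these symbols alone in the array annotation was taken. This gave 12 probe sets among the 12913 that were tested, or 9 genes among 9769 named. The choice used the differences from uninjured animals, so that these differences are given as a description, with no test and no p. The comparison of day 7 with day 2 and of day 60 with day 21 had no part in the choice as it is stated, and was tested. The same injured rats entered the differences that were used, so that these tests are not fully independent of the choice.

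All animals were adult male Wistar rats. The control group (4 rats) had no injury, and the groups Spi-2 (6 rats), Spi-7 (5 rats), Spi-21 (8 rats) and Spi-60 (8 rats) were killed 2, 7, 21 and 60 days after the cord had been cut through at the second sacral segment. All groups, controls included, had received Fluoro-Gold, a tracer carried back from muscle to motor neurons, and the labelled cells of the sacral cord were cut out by laser. Each of the 31 arrays held RNA of 1 rat after linear amplification in 2 rounds. The arrays of days 21 and 60 came from an earlier study than those of the control, day 2 and day 7 rats, so that a difference of either late day from control and a difference between the studies cannot be told apart. The samples were pools of cells, in which fewer cells of a type and less RNA per cell cannot be told apart either.

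Calcium that enters a neuron is read and restrained by proteins that bind it. Sensors such as the visinin-like and hippocalcin-like proteins, which carry EF hands, expose a fatty acid tail or a binding surface when calcium rises and then move to the membrane or to a partner protein. Buffers such as the calbindins and parvalbumin mainly hold calcium and shape its time course, and in the spinal cord they are known as labels of particular interneurons and of sensory fibres, while most motor neurons hold little of them. Annexins bind acidic membrane lipids in the presence of calcium, and S100 proteins are small EF-hand dimers with many targets.

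The summed level of 9 motor neuron genes lay between 15.47 and 16.12 on the log2 scale over all arrays, a sum carried by the neurofilament genes (group means of 13.17 to 14.20). Within the list Slc5a7, the choline transporter, was lower after injury (11.54 in control rats, 10.36 to 10.50 in the injured groups), peripherin (Prph) was higher (12.10, and 12.69 to 12.90), Slc18a3, which loads acetylcholine into vesicles, lay between 6.88 and 7.92, and Isl1, at 5.64 to 5.77, was below the median of the arrays throughout. Among the lists of other cell types, those of interneurons, oligodendrocytes and microglia differed most from control. The summed level of 7 interneuron genes had a median of 10.83 in control rats (range 9.20 to 11.29) and of 9.75, 9.31, 8.88 and 9.07 at days 2, 7, 21 and 60. In this list Gad1, which makes GABA, had group means of 9.16 in control rats and 6.63 at day 21. Slc32a1, which loads GABA and glycine into vesicles, had 7.56 and 5.69, and Slc17a6 had 8.8 and 6.9. Npy (6.29 and 5.99) was lower by less, Slc6a5 (5.63 and 5.66) and Sst (6.04 and 6.17) were not lower, and Gad2 was at 4.98 and 4.97. By limma 2, 0, 3 and 3 of the 7 genes were called lower in day order. The summed level of 6 oligodendrocyte genes had a median of 13.07 in control rats and of 11.99 to 12.34 after injury, and that of 10 microglia genes 9.07 and 9.50 to 10.19. The medians of 8 astrocyte genes were 13.36 in control rats and 12.67 to 13.45 after injury, with Gfap higher by 2.45 ± 0.42 at day 2, and those of 3 endothelial and pericyte genes were 7.30 and 7.31 to 7.40. The difference between the 3′ and 5′ Gapdh control probe sets, which grows as RNA becomes shorter, was 1.80 to 2.50 in control rats, and in day order 2.30 to 3.38, 2.38 to 3.33, 1.13 to 3.54 and 3.00 to 3.97 after injury. Replicates 1 to 3 of day 21 are set against replicates 4 to 8 below, a split known from earlier results of these arrays. How many of all probe sets separate these rats was not counted. The interquartile range of the values was 1.74 to 1.79 on these 3 arrays and 1.83 to 1.89 on the other 5. The Gapdh difference did not overlap either, at 2.90 to 3.54 and 1.13 to 2.76. Within the 5, however, replicate 4 (2.76) lay next to replicate 3 (2.90) and away from replicates 5 to 8 (1.13 to 1.66). Correlations between the sets (0.93 to 0.97) overlapped those within them. The part of RNA length in this split was not tested.

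Among the sensors, Vsnl1 was far lower after injury. Vsnl1 encodes visinin-like protein 1 (VILIP-1), a neuronal calcium sensor that binds membranes through a myristoyl tail. The brighter of its 2 probe sets read 10.32, 9.95, 9.44 and 8.08 (log2 values) in the 4 control rats. In the day 2 rats the range was 6.69 to 8.31 with a median of 7.04, and at day 7 the values were 6.79, 6.72, 7.18, 8.27 and 6.65. The day 21 range was 6.06 to 7.30 (median 6.69) and the day 60 range 6.40 to 8.22 (median 7.01). The lowest control rat, replicate 4, overlapped with 1 animal each of days 2, 7 and 60, whereas all 8 rats of day 21 lay below all 4 controls. In day order, the log2 differences from control were -2.18 ± 0.38 (SE of the fit), -2.32 ± 0.40, -2.78 ± 0.36 and -2.36 ± 0.36, which puts the control level 4.53 times above day 2 and 6.88 times above day 21. Between days 2 and 7 the difference was -0.15 (95% interval -0.99 to 0.70, adjusted p = 0.99 by limma), and between days 21 and 60 it was 0.42 (-0.06 to 0.91, adjusted p = 0.54). Both intervals include changes of either sign.

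The second Vsnl1 probe set read lower, with 5.39 to 6.20 in control rats, and its mean over all arrays was under the limit of 5.34 set for dim probe sets (the 0.25 quantile of all means). It took the same direction, with differences of -1.11 ± 0.20, -0.85 ± 0.20, -1.02 ± 0.19 and -0.92 ± 0.19 at the 4 days. Here 5 of 6, 4 of 5, 7 of 8 and 8 of 8 injured rats lay below every control. The 2 probe sets had a Pearson correlation of 0.78 over the 31 arrays and of 0.53 over deviations from the group means.

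**Figure D1:**
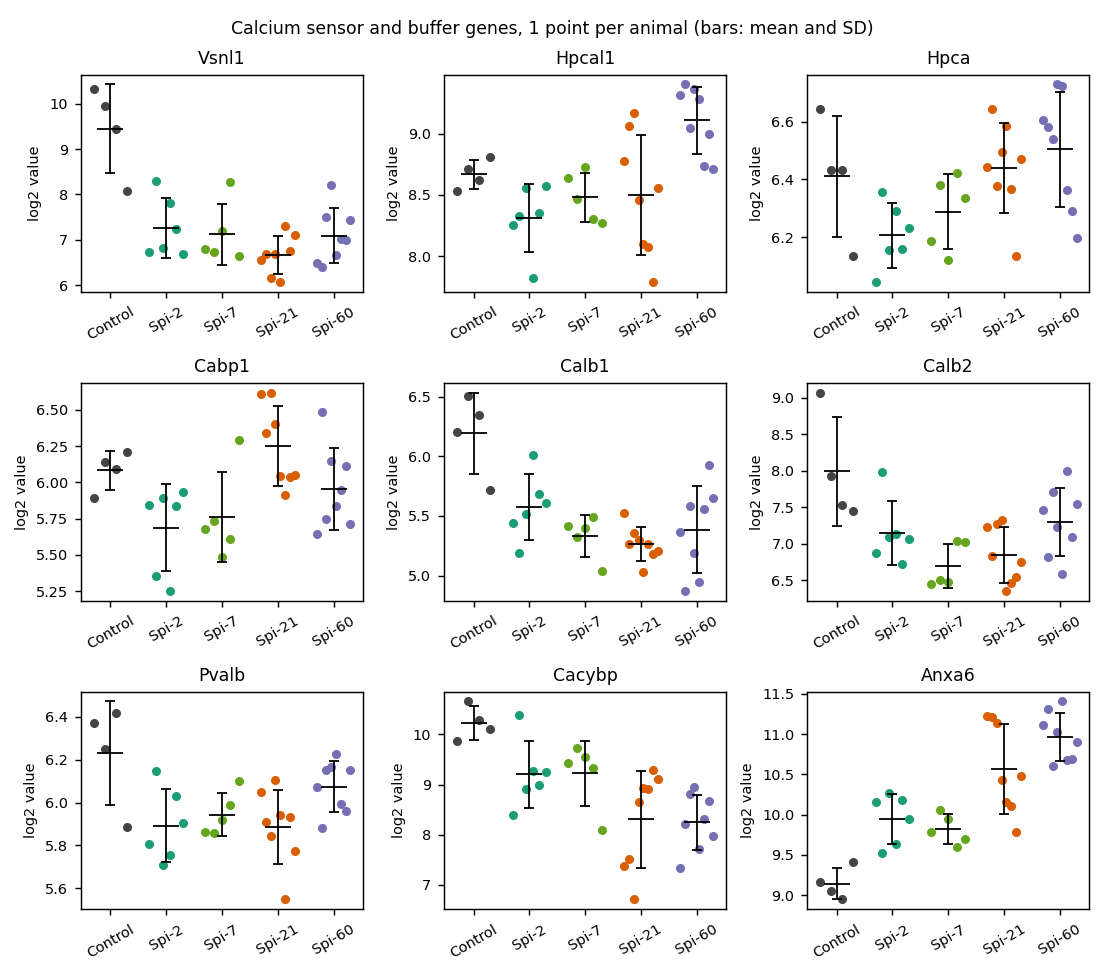
Log2 expression values (vertical axes, each with its own scale) of the 9 genes in the 5 groups, through the brightest or only probe set; each point is 1 rat, and the bars give the mean and SD. Vsnl1, Calb1, Calb2 and Cacybp sit lower after injury and Anxa6 higher, and at day 21 Cacybp and Anxa6 fall into separate clusters of 3 and 5 rats.

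The level of the brighter Vsnl1 set moved with markers of interneurons and, less closely, of oligodendrocytes and astrocytes. Across the 31 arrays it had a correlation of 0.85 with the mean log2 value of the interneuron list, and of 0.73 when each group mean was taken off. With the oligodendrocyte list the values were 0.75 and 0.61, with the astrocyte list 0.46 and 0.52, and with the motor neuron list 0.07 and -0.09. The second Vsnl1 set shared the relation to interneurons (0.74 and 0.62). With the oligodendrocyte list it had 0.48 and 0.09, and with the astrocyte list 0.16 and 0.03. The control rat with the lowest Vsnl1 (8.08) also had the lowest interneuron sum of its group, 9.20 against 10.76, 10.91 and 11.29 in the other controls. The probe sets closest to Vsnl1 over the arrays were those of Rnf227 (r = 0.89), of Cnr1 (0.89), the cannabinoid receptor of nerve endings, and of Ppm1b (0.88), a protein phosphatase. What part the cells around the motor neurons had in the Vsnl1 difference was not tested.

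**Figure D2:**
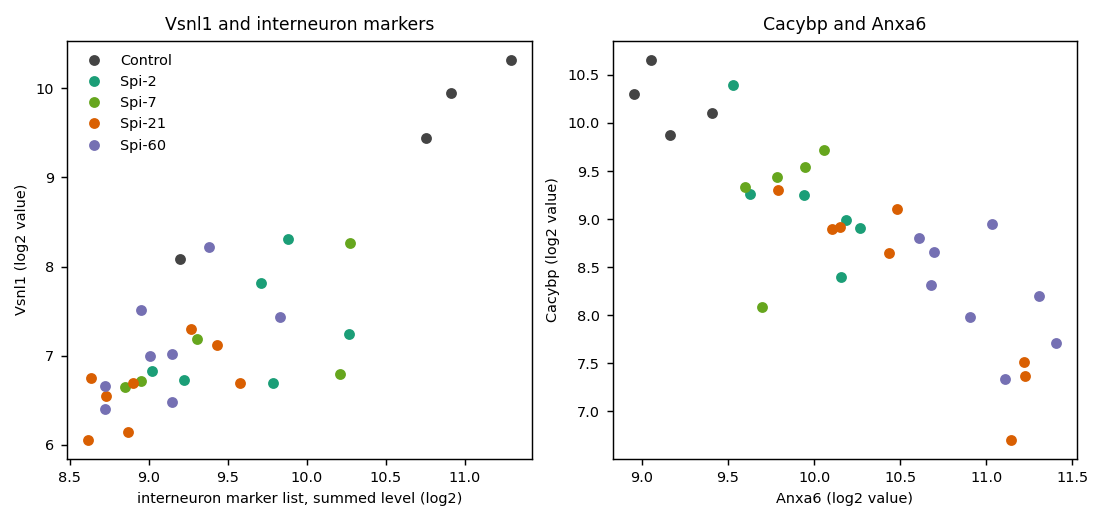
Left, Vsnl1 (log2 value) against the summed level of 7 interneuron genes (log2); right, Cacybp against Anxa6 (log2 values of the brightest or only probe set); each point is 1 of 31 rats, coloured by group. Of the controls, the rat with the lowest interneuron sum (9.20) has the lowest Vsnl1 (8.08), and Cacybp is lowest where Anxa6 is high (r = -0.85 over all arrays).

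The hippocalcin-like sensors did not share this pattern. Hpcal1 encodes a close relative of hippocalcin, and its brighter probe set read 8.53, 8.71, 8.62 and 8.81 in control rats. The day 2 rats had a median of 8.34 (7.82 to 8.58), and the day 7 rats read 8.64, 8.47, 8.73, 8.31 and 8.27. Medians were 8.51 (7.79 to 9.17) in the day 21 rats and 9.16 (8.71 to 9.40) in the day 60 rats. Day 60 was the highest group, with 6 of 8 rats above every control, and the only one on that side. The differences from control were -0.35 ± 0.20, -0.19 ± 0.21, -0.17 ± 0.19 and 0.44 ± 0.19, and with the Gapdh difference as a covariate the day 60 value was -0.05.

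Of all members, Hpcal1 came nearest to a difference between the late days. Day 60 lay 0.61 above day 21 (95% interval 0.23 to 0.99), with an adjusted p of 0.27 by limma. At day 21 replicates 1 to 3 read 8.78 to 9.17 and replicates 4 to 8 read 7.79 to 8.56, with no overlap. Without replicates 1 to 3 the difference was 0.91 ± 0.15, and the day 21 difference from control was -0.47 ± 0.17. Hpcal1 also moved with the Gapdh difference over the arrays (r = 0.59, and 0.58 within groups), and its part in the late difference was not tested. The second Hpcal1 probe set stayed between 5.23 and 5.62 in all 31 rats, with differences from control of -0.07 to -0.01. The 2 sets do not show the same course.

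Hpca, which encodes hippocalcin itself, a sensor best known from hippocampal neurons, varied little. It read 6.64, 6.43, 6.43 and 6.13 in control rats and had medians of 6.19, 6.33, 6.46 and 6.56 at days 2, 7, 21 and 60. Differences from control were between -0.21 and 0.09 with SEs of 0.11 to 0.12, and each group overlapped the controls. Cabp1, a calmodulin-like sensor that acts on calcium channels and on inositol trisphosphate receptors, read 5.89, 6.14, 6.10 and 6.21 in control rats. Its differences were -0.40 ± 0.17 and -0.32 ± 0.18 at days 2 and 7, with 4 of 6 and 4 of 5 rats below every control, and 0.17 ± 0.16 and -0.13 ± 0.16 at days 21 and 60. For Cabp1 day 60 lay 0.30 below day 21 (95% interval -0.58 to -0.02, adjusted p = 0.46 by limma). Without replicates 1 to 3 of day 21 that difference was -0.14 ± 0.14, and day 21 differed from control by 0.01 ± 0.17.

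All 3 of the EF-hand buffers read lower than control after injury, Calb1 and Calb2 by the wider margin. Calb1, calbindin-D28k, read 6.20, 6.50, 6.34 and 5.72 in control rats. The day 2 rats had a median of 5.56 (5.19 to 6.01), and the day 7 rats read 5.42, 5.32, 5.40, 5.49 and 5.04. Medians were 5.26 (5.03 to 5.52) in the day 21 rats and 5.46 (4.87 to 5.92) in the day 60 rats. Every rat of days 7 and 21 lay below every control, as did 5 of 6 at day 2 and 7 of 8 at day 60. The differences were -0.62 ± 0.17, -0.86 ± 0.18, -0.93 ± 0.16 and -0.80 ± 0.16. The group means of days 7 and 21 (5.33 and 5.27) lay under the limit for dim probe sets (5.34) and that of day 60 (5.39) just above it.

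Calb2, calretinin, read 9.07, 7.93, 7.52 and 7.44 in control rats, of which replicate 1 lay far above the rest. The day 2 rats had a median of 7.07 (6.72 to 7.98), and the day 7 rats read 6.44, 6.50, 6.47, 7.03 and 7.02. Medians were 6.79 (6.35 to 7.32) in the day 21 rats and 7.35 (6.58 to 7.99) in the day 60 rats. No rat of days 7 and 21 reached the lowest control, while 4 of 8 rats of day 60 did. The differences were -0.85 ± 0.28, -1.30 ± 0.29, -1.15 ± 0.27 and -0.69 ± 0.27. Without replicate 1 of the controls they were -0.49, -0.94, -0.79 and -0.33. The later return was not called, as day 60 lay 0.46 above day 21 (95% interval 0.06 to 0.86) with an adjusted p of 0.43 by limma.

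Pvalb, parvalbumin, read 6.37, 6.25, 6.42 and 5.88 in control rats and had medians of 5.86, 5.92, 5.92 and 6.11 at days 2, 7, 21 and 60. The differences were small, -0.34 ± 0.11, -0.29 ± 0.12, -0.34 ± 0.11 and -0.16 ± 0.11, and every injured group overlapped the controls through replicate 4. That rat also had the lowest Calb1, Calb2 and Vsnl1 of the controls.

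The buffers moved with markers of other cells as well. Calb2 was closest to Lamp5 (r = 0.81), Slc32a1 (0.80) and Slc30a3 (0.69), a vesicular zinc transporter, and with Slc32a1 the correlation was 0.75 over deviations from the group means. Pvalb was closest to Mbp (0.76), a protein of myelin, to Tmem212 (0.73) and to Apoc1 (0.69). Calb1 was closest to Slc12a2 (0.79), the chloride importer NKCC1, to Patz1 (0.78) and to Depdc7 (0.77), and had a correlation of 0.72 with the interneuron list and of 0.44 within groups. These are descriptions over 31 arrays that share the group differences. With the oligodendrocyte list Calb1, Calb2 and Pvalb had correlations of 0.62, 0.61 and 0.71. The part of neighbouring interneurons and glia in the lower buffer levels was not tested.

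Cacybp was the member that stayed furthest below control at both late days after Vsnl1. It encodes the calcyclin-binding protein, a partner of S100 proteins in a complex that marks proteins for degradation. The brighter probe set read 9.87, 10.66, 10.30 and 10.10 in control rats. The day 2 rats had a median of 9.12 (8.40 to 10.40), and the day 7 rats read 9.44, 9.72, 9.55, 9.33 and 8.09. Medians were 8.78 (6.71 to 9.30) in the day 21 rats and 8.26 (7.34 to 8.95) in the day 60 rats. Of the injured rats only replicate 2 of day 2 reached the range of the controls. The differences from control were -1.03 ± 0.42, -1.01 ± 0.44, -1.92 ± 0.40 and -1.99 ± 0.40, and the control level was 3.79 times that of day 21.

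At day 21 the brighter Cacybp set fell into separate clusters, a split that was not counted over all sets. Replicates 1 to 3 read 7.37, 7.51 and 6.71, and replicates 4 to 8 read 8.65, 8.92, 8.90, 9.30 and 9.11. Without the first 3 the difference from control was -1.26 ± 0.33, and day 60 lay 0.73 ± 0.23 below day 21, whereas with all 8 rats the late days differed by -0.06 (95% interval -0.78 to 0.65, adjusted p = 0.97). This set moved against the Gapdh difference (r = -0.43, and -0.41 within groups), and with that as a covariate the day 60 difference from control was -1.24. The part of RNA length in it was not tested. With the mean log2 value of the motor neuron list the correlation was 0.52 (0.64 within groups), and with the interneuron list 0.56 (0.14). The second Cacybp probe set was dim, with 5.40, 5.41, 5.42 and 4.94 in control rats, and its differences of -0.35 ± 0.11, -0.37 ± 0.11, -0.55 ± 0.10 and -0.39 ± 0.10 had the same sign. On that set replicates 1 to 3 of day 21 (4.44 to 4.92) overlapped with replicates 4 to 8 (4.73 to 4.87).

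The promoters of Vsnl1 and Cacybp are shown for the 250 bases before the start of the gene (RefSeq, build GRCr8, the gene's strand 5′ to 3′). With all rats in, the brighter sets of these genes lay furthest below control at days 21 and 60, whereas at day 7 Calb2 lay lower than Cacybp. The Vsnl1 window is chr6:39878557-39878806 on the minus strand and the Cacybp window chr13:74981240-74981489 on the minus strand. Capitals mark the GC box GGGCGG, which binds Sp1-type factors, searched on both strands.
Vsnl1: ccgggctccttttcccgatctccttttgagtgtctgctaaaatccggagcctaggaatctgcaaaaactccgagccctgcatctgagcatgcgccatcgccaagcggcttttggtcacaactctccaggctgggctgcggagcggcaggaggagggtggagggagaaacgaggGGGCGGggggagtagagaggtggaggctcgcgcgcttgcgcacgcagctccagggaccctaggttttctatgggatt
Cacybp: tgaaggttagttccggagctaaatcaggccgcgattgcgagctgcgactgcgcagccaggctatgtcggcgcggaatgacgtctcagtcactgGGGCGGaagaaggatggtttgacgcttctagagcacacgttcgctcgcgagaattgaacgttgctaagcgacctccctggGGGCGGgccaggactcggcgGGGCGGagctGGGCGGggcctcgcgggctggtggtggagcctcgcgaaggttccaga
The GC box was found 1 time for Vsnl1 and 4 times for Cacybp, and was present in 30.5% of all 33469 windows of this length. Neither window held TATAAA (12.9% of windows), CCAAT (34%) or the cAMP response element TGACGTCA (1.59%), again on both strands. Both windows were rich in G and C (60.8% and 64%, against a median of 51.2%). The GC box was not particular to these genes. Among the other members with a window, Hpcal1 held 3, Pvalb 1 and Hpca 0, and the windows of Cabp1 held 2 and 0. A match is a run of letters, and the arrays measured no binding.

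Anxa6 was the member that read higher. It encodes annexin A6, a large annexin that binds membranes in a calcium-dependent way. It read 9.16, 9.05, 8.95 and 9.41 in control rats. The day 2 rats had a median of 10.05 (9.53 to 10.27), and the day 7 rats read 9.79, 10.06, 9.95, 9.60 and 9.70. Medians were 10.46 (9.79 to 11.23) in the day 21 rats and 10.97 (10.61 to 11.41) in the day 60 rats. Every injured rat lay above all 4 controls. The differences were 0.81 ± 0.23, 0.67 ± 0.24, 1.42 ± 0.21 and 1.82 ± 0.21, so that the day 60 level was 3.54 times control.

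The course of Anxa6 within each pair of days was less certain. Day 7 differed from day 2 by -0.13 (95% interval -0.44 to 0.17, adjusted p = 0.99 by limma) and day 60 from day 21 by 0.40 (-0.02 to 0.82, adjusted p = 0.50). Replicates 1 to 3 of day 21 read 11.14 to 11.23, in the range of day 60, and replicates 4 to 8 read 9.79 to 10.48. Without the first 3, day 21 lay 1.05 ± 0.17 above control and day 60 lay 0.78 ± 0.15 above day 21. Anxa6 moved with the Gapdh difference (r = 0.56, and 0.60 within groups), and with that as a covariate its differences from control were 0.49, 0.29, 1.32 and 1.25. The part of RNA length in them was not tested.

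**Figure D3:**
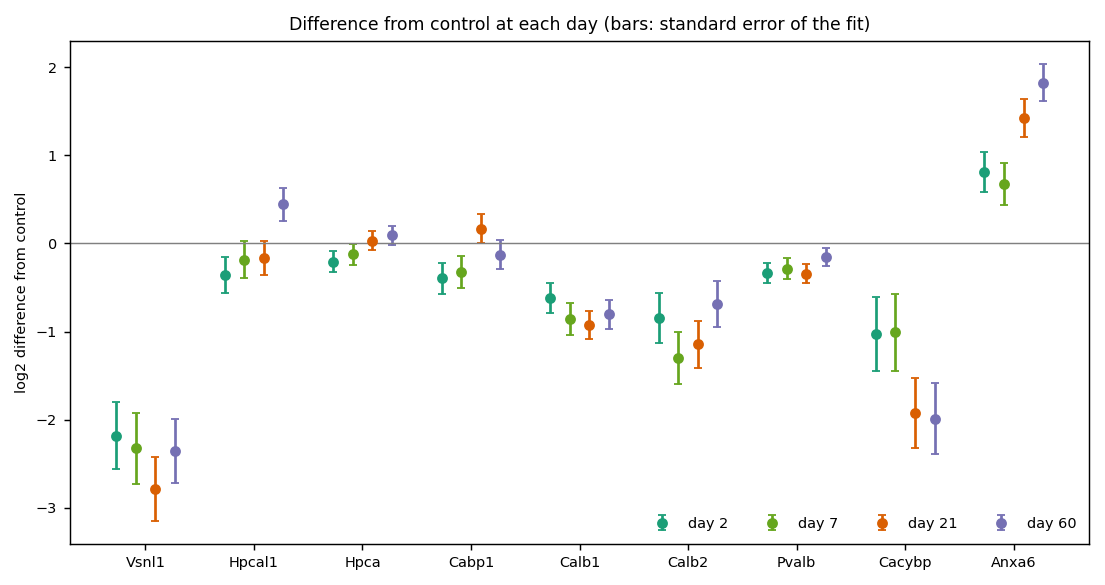
Log2 difference from control (vertical axis) of each gene at days 2, 7, 21 and 60 (colours), through the brightest or only probe set; bars are the SE of the fit. Vsnl1 lies at -2.18 to -2.78 from day 2 on, Cacybp goes from -1.03 to -1.99 and Anxa6 from 0.67 to 1.82 between the early and late days.

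Cacybp and Anxa6 ran in opposite directions from rat to rat. Their correlation was -0.85 over the 31 arrays and -0.70 over deviations from the group means, which include the clusters of day 21. Within groups their correlations with the Gapdh difference were -0.41 and 0.60. The probe sets closest to Cacybp were those of Usp33 (r = 0.95), a deubiquitinase, Ppp1cb (0.94), a catalytic subunit of protein phosphatase 1, and Serinc1 (0.94). Those closest to Anxa6 were Ptprn (0.92), a protein of dense core vesicles, Uba1 (0.91), the enzyme that starts ubiquitin transfer, and Psmb7 (0.91), a proteasome subunit. Hpcal1 was closest to Mlf2 (0.88), Tmub2 (0.84) and Cbln1 (0.83), Cabp1 to Chd8 (0.74), Ap5z1 (0.74) and Robo1 (0.73), and Hpca to Ffar2 (0.74), Thra (0.73) and Lrp5 (0.72). Hpcal1 and Anxa6 had a correlation of 0.64, and of 0.82 within groups.

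The calls over all probe sets give the background to these values. In the F-test over the 5 groups (FDR 0.02), 8 of the 12 member probe sets, of 6 genes, passed, and 16.2% of all probe sets did. The sets past an adjusted p of 0.05 in the lower direction were, in day order, 4 (4.98% of all sets), 4 (1.67%), 7 (10.7%) and 5 (9.89%). In the higher direction they were 1 (3.9%), 0 (0.914%), 1 (5.94%) and 1 (7.2%), each time Anxa6. The members were chosen for such differences, so nothing is read from their excess. The medians of the absolute differences of the 12 sets were 0.51, 0.52, 0.74 and 0.56, against 0.16, 0.15, 0.19 and 0.19 over all sets. A further quantile normalization changed the split over all sets from more lower to more higher calls at the late days (1014 lower and 1103 higher at day 21, 939 and 1154 at day 60, and 168 and 141 at day 7), while the direction of every called member difference held.

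Between days 7 and 2 limma called 0 of the 12 member sets, as it called 0 of all 12913 (0%). At an unadjusted p under 0.05 these were 0 members and 514 sets. Between days 60 and 21 it called 0 members and 1 set of all (0.00774%). An unadjusted p under 0.05 was found for 4 of the 12 member sets (Hpcal1, Calb2, Cabp1 and Pvalb) and for 1340 of all 12913. Without replicates 1 to 3 of day 21, 2 member sets (Hpcal1 and Anxa6) and 0.496% of all sets were called, but the split was known to separate these genes, so that this count is a description.

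Other genes of calcium-binding families changed in both directions, as did the probe sets as a whole. Of 76 such genes listed, 54 were measured, each through its brightest probe set. The list was drawn up with earlier results of these arrays known, so that the p-values of its genes are to be read as descriptions. Those past the threshold numbered, in day order, 3 lower and 4 higher, 2 and 1, 5 and 5, and 5 and 5. The median difference of the 54 genes was 0.05, 0.03, 0.03 and 0.03, and that of all probe sets lay between -0.003 and 0.01. In day order these calls were 5.56%, 3.7%, 9.26% and 9.26% lower and 7.41%, 1.85%, 9.26% and 9.26% higher. Over all sets they were 4.98%, 1.67%, 10.7% and 9.89% lower and 3.9%, 0.914%, 5.94% and 7.2% higher. The families below are small, and their counts are to be read beside these shares.

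Of the 8 neuronal calcium sensors and channel-interacting proteins measured beside the members, none read lower by the test at any day. Kcnip2, a subunit that binds Kv4 potassium channels, rose by 0.32 ± 0.09 at day 2 (adjusted p = 0.028 by limma), and its relative Kcnip4 rose by 0.46 ± 0.11 at day 21 (0.0046) from a dim 4.61. Guca1a, the guanylate cyclase activator of photoreceptors, rose by 0.78 ± 0.19 and 0.59 ± 0.19 at days 21 and 60 (adjusted p = 0.0055 and 0.029), from a control mean of 3.92 that is also among the lowest on the array. Ncs1 (0.30 ± 0.12, adjusted p = 0.081) and Hpcal4 (0.26 ± 0.12, 0.12) did not pass at day 21.

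Of the 10 other genes of the calmodulin-like group, 3 fell at both late days. Cetn3, a centrin of centrioles and cilia, fell by 0.51 ± 0.12, 0.49 ± 0.13, 0.65 ± 0.12 and 0.65 ± 0.12 at the 4 days (adjusted p = 0.0087, 0.033, 0.00068 and 0.00046 by limma). Cetn2, its paralog, fell by 1.04 ± 0.23 and 1.10 ± 0.23 at days 21 and 60 (adjusted p = 0.0032 and 0.0015). Efhd1, a calcium sensor of mitochondria, fell by 0.95 ± 0.21, 1.06 ± 0.20 and 0.62 ± 0.20 at days 2, 21 and 60 (adjusted p = 0.0040, 0.00082 and 0.028). The other buffers measured, Ocm and S100g, showed no call at any day.

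Of the 12 S100 genes only S100a10, the partner of annexin A2, passed the test at any day, and it rose by 0.63 ± 0.12, 0.50 ± 0.12, 0.33 ± 0.11 and 0.35 ± 0.11 (adjusted p = 0.00095, 0.024, 0.042 and 0.028 by limma). S100a6, calcyclin, a partner of the Cacybp protein, differed by -0.18 ± 0.34 at day 21 (adjusted p = 0.75). Among the 7 other annexins no gene fell. Anxa2 rose by 0.66 ± 0.21 and 0.78 ± 0.21 at days 21 and 60 (adjusted p = 0.032 and 0.012), Anxa3 by 1.49 ± 0.44 at day 2 (0.030), Anxa11 by 0.43 ± 0.11 at day 2 (0.014) and Anxa8 by 0.40 ± 0.14 at day 21 (0.039). Without replicates 1 to 3 of day 21 the day 21 calls of S100a10, Anxa2, Anxa8, Rcn2 and Hspa5 were lost, which left 5 of 10. Over all sets the day 21 calls went from 1381 lower and 767 higher to 505 and 175.

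Calcium-binding proteins of the secretory pathway went both ways. Hsp90b1, the chaperone GRP94, fell by 0.79 ± 0.20, 0.78 ± 0.21 and 0.76 ± 0.19 at days 2, 7 and 60 (adjusted p = 0.012, 0.035 and 0.0065 by limma). Hspa5, the chaperone BiP, fell by 0.42 ± 0.14 and 0.53 ± 0.14 at days 21 and 60 (0.041 and 0.010), and Rcn2, a reticulocalbin, by 0.92 ± 0.24 at day 21 (0.011). Nucb1, nucleobindin of the Golgi, and Calr, calreticulin, rose at day 60 by 0.87 ± 0.19 and 0.33 ± 0.11 (0.0019 and 0.027). With the Gapdh difference as a covariate 1 of the 10 calls of day 60, that of Cetn3, was left. Over all sets the calls of day 60 went from 1277 lower and 930 higher to 170 and 97. The Gapdh difference of control rats (1.80 to 2.50) and that of day 60 rats (3.00 to 3.97) did not overlap, so that covariate and day cannot be told apart. Over the 4 days, 14 of the 30 calls of other genes held when any 1 array was left out, those of Efhd1 and S100a10 at day 2, of Guca1a, Kcnip4, Cetn2, Cetn3, Efhd1 and Rcn2 at day 21 and of Cetn2, Cetn3, Anxa2, Nucb1, Hspa5 and Hsp90b1 at day 60. The other 16 were lost without at least 1 array, 14 of them without replicate 1 of the controls, 12 without replicate 2 and 9 without replicate 3.

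**Figure D4:**
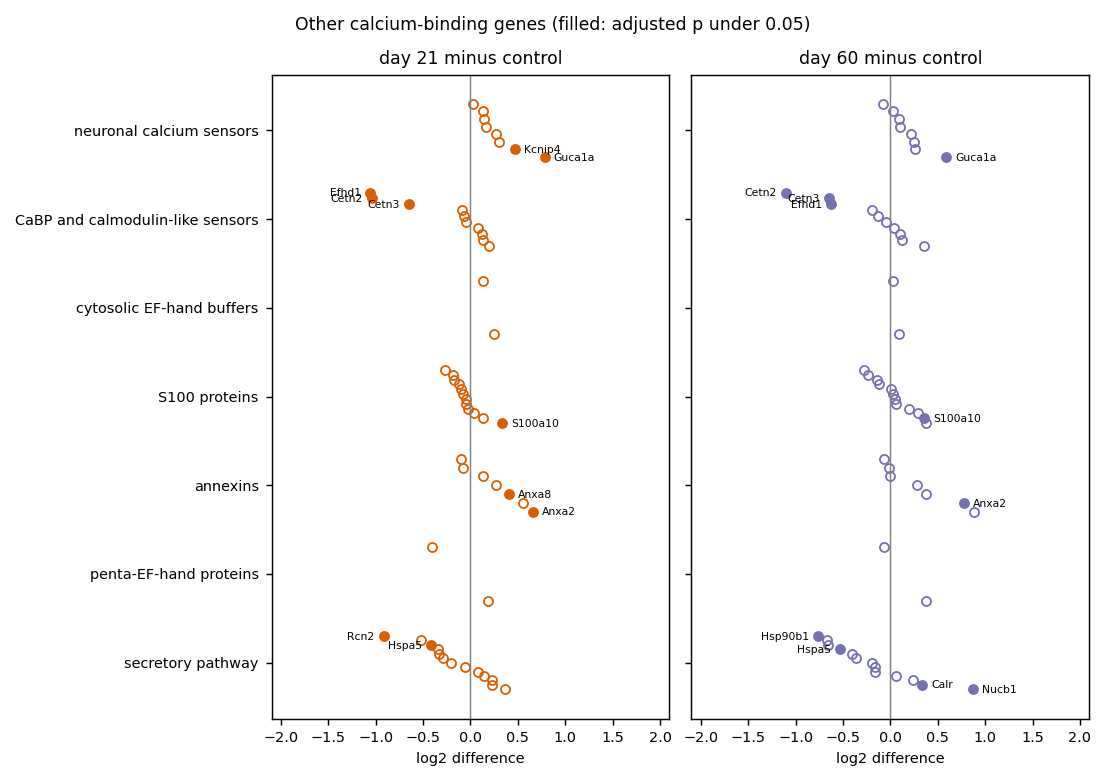
Log2 difference from control (horizontal axis) of 54 other calcium-binding genes by family, at day 21 (left) and day 60 (right); each circle is 1 gene, filled and named where the adjusted p was under 0.05. The filled genes are 5 lower and 5 higher at each day, with centrins and Efhd1 on the low side and annexins and S100a10 on the high side.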

How the data were processed

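The authors discarded probe sets outside the Ensembl annotation of the Affymetrix rat genome array and deposited background-compensated, quantile normalized RMA summaries on the log2 scale, 1 column per rat (RMA is named in the submitters' processing notes, with no version). No raw array file was used here. Of 12919 rows, 6 control sets were left out. Of the 12913 tested, the annotation table gave 11880 a single symbol, 320 more than that and 713 no symbol, and only sets of the first kind were named.

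limma 3.58.1 (R 4.3.3) gave each of the 5 groups a mean over the 31 arrays, without covariates and with variances shrunk towards a common value. Day 7 was compared with day 2 on the 15 arrays of the later study and day 60 with day 21 on the 16 of the earlier one. P-values are two-sided and Benjamini-Hochberg adjusted over all 12913 sets. Called means an adjusted p under 0.05 in a contrast or an FDR of 0.02 in the F-test. Replicates are separate rats. The number of arrays limits the precision.

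The members and the lists of other genes were chosen with earlier results of these data known. Named genes are all member sets, the called other genes with the 3 lowest and 3 highest changes per day or of a member's family, and the 3 most similar sets per member by Pearson correlation. Alternatives were a further quantile normalization, leaving out the sets under the 0.25 quantile of the means, array weights, an intensity trend, the 3′ minus 5′ Gapdh difference as a covariate, only the contrast's groups, a replicate block, another probe set per gene, each array left out in turn, and replicates 1 to 3 of day 21 left out. The script was tested on simulated data.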

Additional observations from a re-analysis of the deposited data

Results flagged for a closer look

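In 60 groups of member values (12 probe sets in 5 groups), 4 held a rat far from the others of its group by a gap test, and chance flags about 1 in 20 groups. The second Cacybp probe set read 4.94 in replicate 4 of the controls, where the next rat read 5.40. The brighter Cacybp probe set read 8.09 in replicate 5 of day 7, where the next rat read 9.33. Calb2 read 7.98 in replicate 2 of day 2, above the next at 7.14. The second Vsnl1 probe set read 5.54 in replicate 8 of day 21, above the next at 5.03.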

How the results depend on the processing

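Most counts kept to within 1.5 times under the alternatives. With array weights the member sets called were 8 at day 2 and 8 at day 7, and the other calcium-binding genes 13, 10 and 17 at days 2, 7 and 60. Calls over all sets rose as well, to 1220 lower and 1055 higher at day 2, 835 and 695 at day 7, and 1797 and 1436 at day 60. With the Gapdh covariate the other genes called were 4, 1 and 1 at these days. Over all sets it left 451 lower and 317 higher calls at day 2, 131 and 59 at day 7, and 170 and 97 at day 60. With only the contrast's groups in the fit 1 other gene was called at day 7, and over all sets 343 were called lower and 181 higher. Without replicates 1 to 3 of day 21, 2 members were called between days 60 and 21 (0.496% of all sets) and 5 other genes at day 21 (5.27% of all sets). Leaving out each array in turn gave 2 to 8 member sets at day 2 (lowest without control replicate 1, highest without Spi-2 replicate 2), 2 to 5 at day 7 (lowest without control replicate 1), and 4 to 10, 0 to 5, 6 to 12 and 6 to 13 other genes at days 2, 7, 21 and 60 (lowest without control replicate 1 or, at day 60, control replicate 2). Calls over all sets were not counted with 1 array left out, and the cause was not tested.

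The replicate number labels rats only. Same-numbered rats of different groups had a median correlation of deviations of -0.04 (51 pairs), and 2 of 31 arrays correlated best with one of their own number. With the replicate block, 0 other genes were called at day 7 and the other counts stayed within 1.5 times. Over all sets the block left 158 lower and 81 higher calls at day 7.

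The members were chosen for their differences from control, so that what follows on their calls is a description and gives no support to them. No called difference of a member reversed its sign. The calls of the brighter Vsnl1 set held under every alternative, as did those of Anxa6 at the late days. Those of both Cacybp sets at day 60 were lost with the Gapdh covariate, as were most calls of that day over all sets. Under 39 alternatives (38 for the dim sets) the call of Pvalb at day 21 was lost in 6, of Anxa6 at day 2 in 6, of the second Cacybp set at day 2 in 10, of the second Vsnl1 set at day 7 in 5, of Calb1 at day 2 in 3 and of Calb2 at day 7 in 1 (without control replicate 1). The second sets of Vsnl1 and Cacybp, the dimmest of the members, could not be fitted where dim sets were left out, and the F-test has no fit with only a contrast's groups.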
